A study of Homo sapiens with 8 samples.

Results

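The genes described here were 10 ligands and receptors of the fibroblast growth factor (FGF) and platelet-derived growth factor (PDGF) families, chosen by name among the 60282 genes of the table. They were the ligands FGF1, FGF2, PDGFA and PDGFC, and the receptors FGFR1, FGFR2, FGFR3, FGFR4, PDGFRA and PDGFRB. RNA was sequenced from SK-UT-1, an established human uterine leiomyosarcoma cell line grown in medium with fetal bovine serum. The cells received DMSO (vehicle, n = 4) or 5 µM TP-472, a small-molecule inhibitor of the bromodomain proteins BRD9 and BRD7, for 48 h (n = 4). A single cell line was used, no second inhibitor or inactive compound was analysed here, and the labels do not say whether the 4 replicates of a group were separate cultures. The study's methods speak of biological replicates only in general terms, so the p-values measure the spread between these samples. Estimated counts summed to between 32574716 and 38545695 per library. Levels are given as CPM (counts scaled to a fixed library total) after scaling between libraries by the trimmed mean of M-values (TMM).

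FGFs bind receptor tyrosine kinases of the FGFR family together with heparan sulphate, and PDGFs are dimers that bind the tyrosine kinases PDGFRα and PDGFRβ. Activated receptors of both families recruit adaptors that switch on the RAS, RAF, MEK and ERK kinase cascade, which in turn induces genes that dampen it, such as those of the Sprouty and DUSP families. PDGF receptors mark mesenchymal cells, smooth muscle and pericytes among them, and FGF2 is a growth factor of smooth muscle and fibroblasts.

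The libraries carried markers of a mesenchymal cell with part of the smooth muscle programme. Vimentin (VIM) was at 2538 ± 673 CPM in vehicle (SD, n = 4) and the actin-binding gene CALD1, a smooth muscle marker, at 200 ± 15.3 CPM. Of the other smooth muscle markers, ACTA2 (160 ± 16.7 CPM), SMTN (81.5 ± 51.3 CPM) and TAGLN (32.3 ± 3.40 CPM) came next. DES (3.25 ± 0.203 CPM), LMOD1 (2.53 ± 1.04 CPM) and CNN1 (1.26 ± 0.293 CPM) were low. SMTN and CNN1 were named after their values were seen. Smooth muscle myosin MYH11 had 0 to 0.0281 CPM in the vehicle libraries (0.194 to 0.264 CPM in TP-472) and the oestrogen receptor ESR1 had 0 to 0.0287 CPM. Of the leukocyte genes, PTPRC and CD3E were at 0 in every vehicle library, but CD68 was at 7.53 ± 0.573 CPM in vehicle. The epithelial keratin genes KRT19 (8.88 ± 1.78 CPM) and KRT18 (7.39 ± 0.871 CPM) were above DES, LMOD1 and CNN1 in every vehicle library. KRT8, named after its values were seen, was below DES in each of them, and the epithelial genes EPCAM and CDH1 stayed under 1 CPM. The endothelial markers PECAM1, CDH5 and VWF together summed to at most 0.144 CPM in vehicle and at most 0.581 CPM in TP-472, where VWF (0.203 CPM) and PECAM1 (0.195 CPM) had the highest means.

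Vehicle replicate 3 stood apart from the other libraries. Its log2 level rose by 0.66 for each 10% of GC content over the genes tested, while the slope in the other 7 libraries lay between -0.18 and -0.03. The same tilt was present among the 10 genes. The 4 genes under 45% GC (FGF1, FGF2, PDGFC and PDGFRA) had their lowest vehicle level in replicate 3, and the 6 genes over 45% GC (FGFR1, FGFR2, FGFR3, FGFR4, PDGFA and PDGFRB) had their highest there. The low PDGFRA level there is uncertain. PDGFRA had 22.9 estimated counts in replicate 3, and 17 went to AC058822.1, which shares exon bases with it on the same strand. No other vehicle library had counts for AC058822.1. The ratio of replicate 3 to the mean of the other vehicle libraries ran from 0.497 for PDGFRA to 2.05 for FGFR3, and its log2 had a Pearson r of 0.87 with GC content over the 10 genes, which share the same 4 libraries. The tests of the 10 genes are therefore given with and without this library, and those of other genes without it where the call ended or the fold moved by over 1.5 times.

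**Figure D1:**
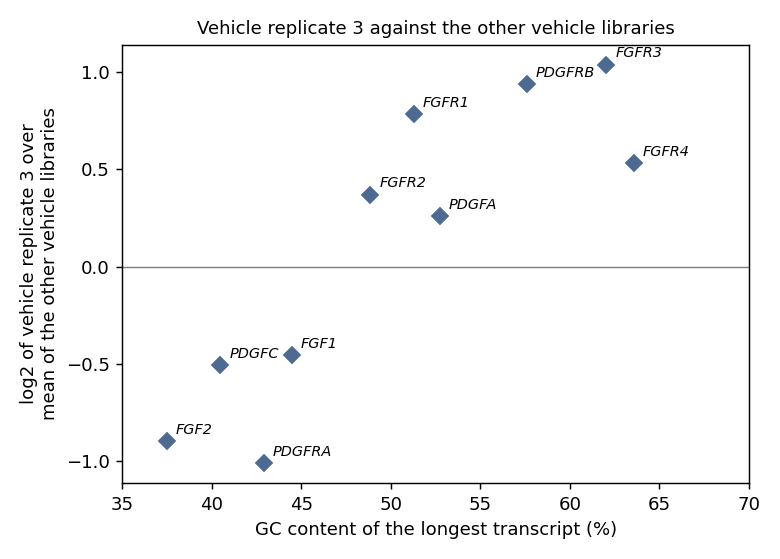
Log2 of the TMM-scaled CPM in vehicle replicate 3 over the mean of vehicle replicates 1, 2 and 4 (y axis) against the GC content of the longest annotated transcript in percent (x axis), 1 point per gene. The 4 genes under 45% GC lie below 0 and the 6 genes over 45% GC lie above it.

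With TP-472, FGF1 rose 6.78-fold from a very low level and PDGFRB fell 5.01-fold. Both also passed without vehicle replicate 3. All 10 genes passed the filter on low counts, and these 2 were differentially expressed genes (DEGs), that is, genes with an adjusted p below 0.05 and a change of more than 1.5-fold (edgeR quasi-likelihood test, Benjamini-Hochberg over the 14073 genes tested). Of all genes tested, 26.9% were DEGs (12.0% higher and 14.9% lower with TP-472), so 2 of 10 was not above the background. The vehicle and TP-472 libraries did not overlap for 4 of the 10 genes (FGF1, FGFR2, PDGFA and PDGFRB), against 45.4% of all genes. The median absolute log2 fold change was 0.30 over the 10 genes and 0.40 over all genes. Without vehicle replicate 3, 4 of the 10 were DEGs, FGF1, FGFR2 and PDGFA upward and PDGFRB downward, against 25.5% of all genes (12.0% upward and 13.4% downward), and the libraries did not overlap for 8 of the 10, against 58.5% of all genes. In bulk RNA, a lower level of a transcript per cell and fewer cells that carry it cannot be told apart.

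**Figure D2:**
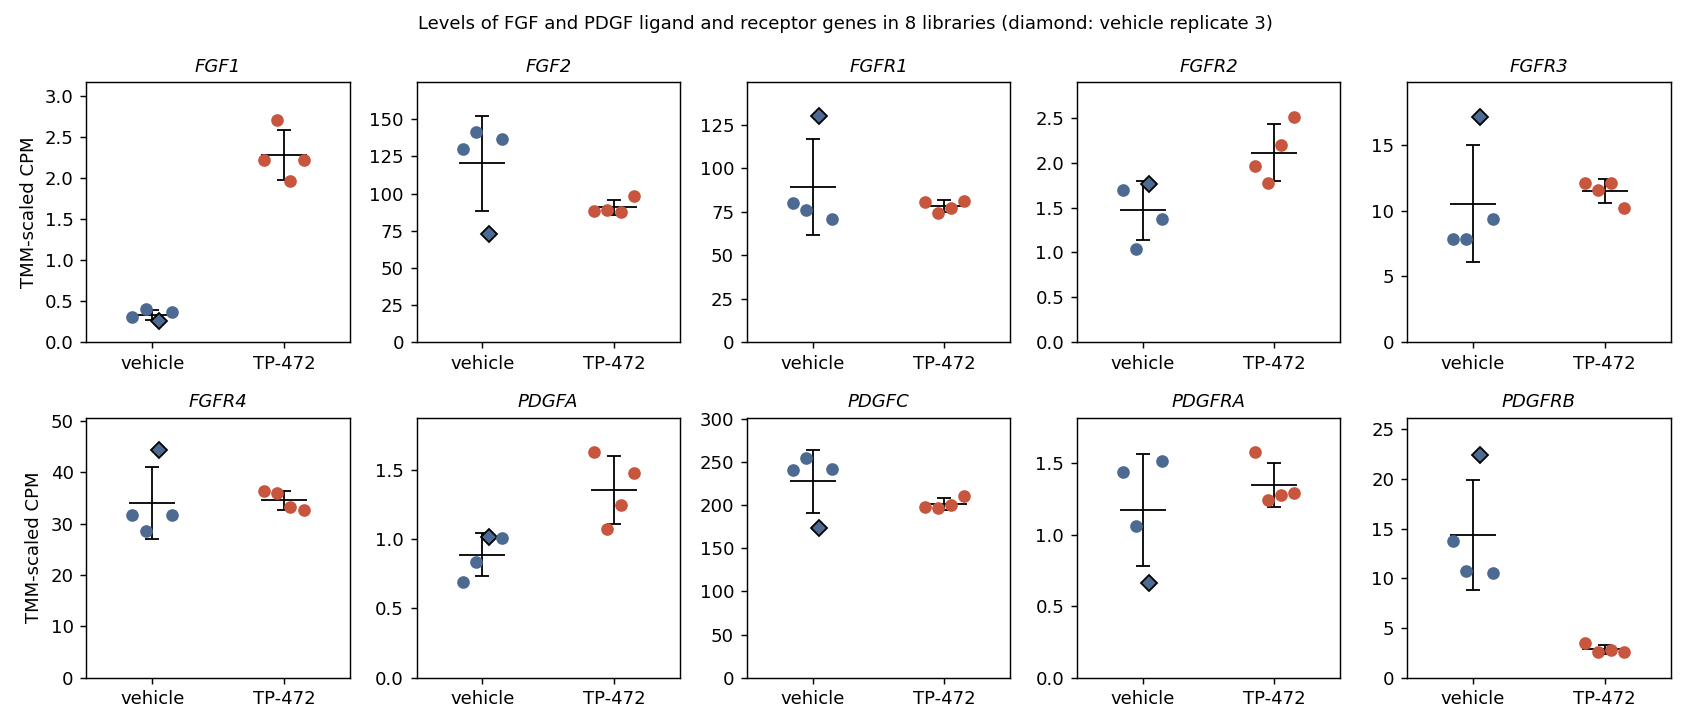
TMM-scaled CPM (y axes, linear from 0) of the 10 genes in each of the 4 vehicle and 4 TP-472 libraries. Points are libraries, the diamond is vehicle replicate 3, and horizontal lines with bars are the mean and SD. FGF1 and PDGFRB are the genes whose groups lie far apart, and vehicle replicate 3 sits at an end of the vehicle range in every panel, level with replicate 4 for PDGFA.

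FGF1, the acidic FGF, binds every FGF receptor and lacks a classical signal peptide. Its level in the vehicle replicates 1 to 4 was 0.305, 0.402, 0.261 and 0.365 CPM. TP-472 replicates 1 to 4 had 2.23, 2.71, 1.97 and 2.22 CPM. Every TP-472 library was thus several times higher than every vehicle library, although the gene remained a low one. The means were 0.333 ± 0.063 and 2.28 ± 0.308 CPM (SD, n = 4), a log2 fold change of 2.76 (SE 0.21, adjusted p = 7.81e-05). The log2 fold change was 2.66 without vehicle replicate 3 (adjusted p = 1.17e-05). These values rested on 9 to 14 estimated counts per vehicle library and 71 to 96 per TP-472 library. No vehicle library exceeded 1 CPM, so FGF1 entered the fit only through the TP-472 libraries and a gene that did so had to differ.

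FGF1 lies at chr5:142592178-142698070 on the minus strand of GRCh38, and RefSeq lists 4 starts for it. The counts are per gene and do not separate the starts. PDGFRB, which changed in the other direction, lies on the same chromosome and strand at chr5:150113837-150155872 and has 1 listed start. The sequences before the outermost FGF1 start and before the PDGFRB start are shown because these 2 genes carried the changes. They come from RefSeq windows on GRCh38.p14 (chr5:142698071-142698320 and chr5:150155873-150156095, minus strand, written 5′ to 3′), and the PDGFRB window leaves out 27 bases that the GENCODE annotation places in the gene. Capitals mark matches to GGGCGG or CCAAT on either strand.
FGF1: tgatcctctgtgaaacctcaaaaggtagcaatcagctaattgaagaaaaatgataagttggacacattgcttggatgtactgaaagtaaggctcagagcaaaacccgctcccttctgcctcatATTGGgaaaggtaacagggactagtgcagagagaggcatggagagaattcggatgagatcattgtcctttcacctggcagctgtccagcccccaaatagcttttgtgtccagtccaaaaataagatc
PDGFRB: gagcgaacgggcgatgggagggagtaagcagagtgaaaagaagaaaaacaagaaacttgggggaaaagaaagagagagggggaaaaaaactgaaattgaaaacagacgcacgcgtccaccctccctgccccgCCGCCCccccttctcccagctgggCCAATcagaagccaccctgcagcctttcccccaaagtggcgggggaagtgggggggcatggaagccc
The FGF1 window had 44.8% GC with 1 CCAAT match and no GGGCGG, and the PDGFRB window had 58.3% GC with 1 match to each. Among all 35116 RefSeq windows of 250 bases before a start, 32.01% held CCAAT and 42.6% held GGGCGG on either strand. TGANTCA, held by 6.57% of all windows, TATAAA (10.7%) and CACGTG (6.34%) were not found in these 2 windows. The windows of the other FGF1 starts differed from the one printed. The next, at chr5:142698022-142698271, overlaps it and held 1 CCAAT, the one at chr5:142686091-142686340 held 1 GGGCGG, and the one at chr5:142644240-142644489 held 1 GGGCGG and 1 TGANTCA. No 2 of the motifs searched overlapped in the 2 printed windows. The matches describe the letters of the windows only.

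FGF2, the basic FGF, was the second most abundant of the 10 genes per length of transcript. The study names it among its network hub genes, a list drawn from the genes that it called DEGs and made on these same libraries. FGF2 was at 129.8, 141.5, 73.04 and 136.7 CPM in the vehicle replicates 1 to 4. With TP-472 it was at 88.03, 88.7, 87.5 and 98.5 CPM. Vehicle replicates 1, 2 and 4 were above all TP-472 libraries and replicate 3 was below all of them. Over all 8 libraries FGF2 was not a DEG (log2 fold change -0.41, SE 0.19, adjusted p = 0.127). Without vehicle replicate 3 the log2 fold change was -0.58 (SE 0.064, adjusted p = 6.42e-05), and the difference stayed just under the fold limit. FGF2 has 37.5% GC, the lowest of the 10 genes, and with each library's trend with GC content removed its log2 fold change was -0.55 (adjusted p = 1.04e-04), which again did not make it a DEG.

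PDGFC was the most abundant of the 10 genes per length of transcript. It encodes a PDGF chain that is secreted with an inhibitory domain and must be cleaved to become active. PDGFC was at 228 ± 36.9 CPM in vehicle and 202 ± 6.53 CPM in TP-472 (SD, n = 4). The log2 fold change was -0.18 (adjusted p = 0.313) over all libraries, and -0.29 (1.22-fold lower, adjusted p = 0.00214) without vehicle replicate 3, below the fold limit either way. PDGFA, the other PDGF chain among the 10 genes, was at 0.693, 0.834, 1.01 and 1.01 CPM in the vehicle replicates 1 to 4. In the TP-472 replicates it was at 1.63, 1.07, 1.25 and 1.48 CPM. The groups did not overlap, but the nearest libraries were 1.01 and 1.07 CPM, and the gene rested on 25 to 63 estimated counts per library. Its log2 fold change was 0.61 (SE 0.22, adjusted p = 0.0520), and 0.68 (adjusted p = 0.0268) without vehicle replicate 3, where it was a DEG. Before TMM scaling, on which the filter was set, only 1 vehicle library exceeded 1 CPM for PDGFA, so that it too needed the TP-472 libraries to pass.

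**Figure D3:**
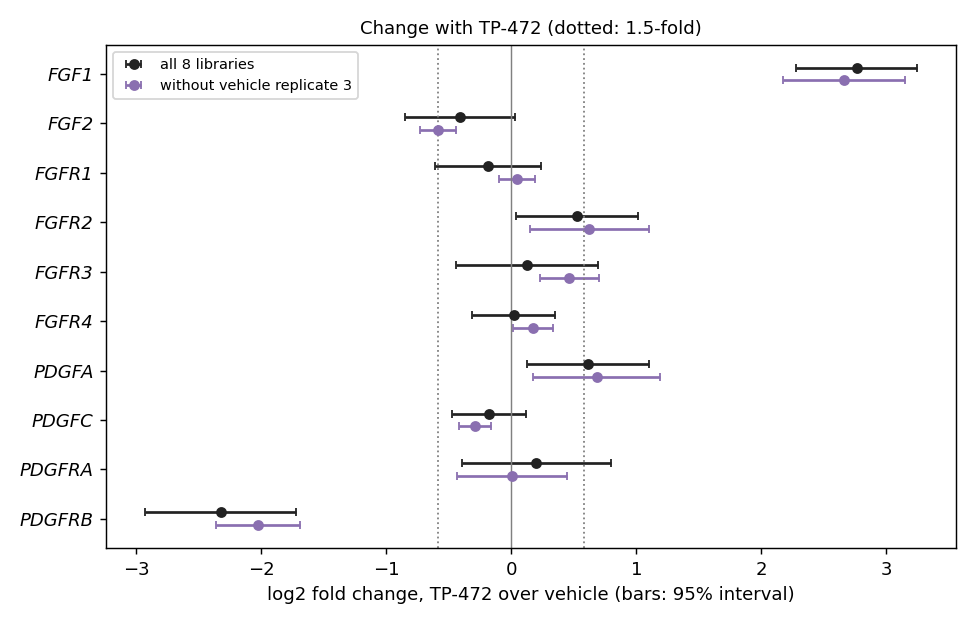
Log2 fold change of TP-472 over vehicle (x axis) for the 10 genes, with 95% intervals from the edgeR fit, over all 8 libraries (black) and without vehicle replicate 3 (purple). Dotted lines mark 1.5-fold. FGF1 at 2.76 and PDGFRB at -2.33 lie outside the dotted lines with their whole intervals in both fits, and the intervals of FGF2, FGFR1, FGFR3, FGFR4 and PDGFC are narrower without the library.

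None of the 4 FGF receptors was a DEG over all 8 libraries. FGFR1 was at 79.97, 75.8, 129.9 and 71.0 CPM in the vehicle replicates 1 to 4 and between 74.1 and 81.3 CPM in the TP-472 replicates. Vehicle replicates 1, 2 and 4 thus spanned nearly the same values as TP-472, and replicate 3 was far above both. The log2 fold change was -0.19 (95% interval -0.61 to 0.23, adjusted p = 0.444), and 0.05 (95% interval -0.09 to 0.19, adjusted p = 0.534) without replicate 3. FGFR4 was at 34.1 ± 7.01 CPM in vehicle and 34.6 ± 1.89 CPM in TP-472, a log2 fold change of 0.02 (95% interval -0.31 to 0.35, adjusted p = 0.926), and 0.17 (adjusted p = 0.0630) without replicate 3. FGFR3 was at 10.5 ± 4.44 and 11.5 ± 0.888 CPM, and its log2 fold change was 0.13 (adjusted p = 0.711). Once vehicle replicate 3 was left out, the vehicle mean of FGFR3 was 8.33 ± 0.891 CPM (SD, n = 3), and the log2 fold change of 0.46 had an adjusted p of 0.00442, under the fold limit.

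FGFR2, whose splice forms divide epithelial from mesenchymal use, was the lowest of the FGF receptors. Its level was 1.69, 1.03, 1.77 and 1.38 CPM in the vehicle replicates 1 to 4. With TP-472 it was 1.97, 1.78, 2.19 and 2.51 CPM. The groups touched without overlapping, at 1.77 and 1.78 CPM. The log2 fold change was 0.52 (SE 0.22, adjusted p = 0.0856), and 0.62 (adjusted p = 0.0300) without vehicle replicate 3, where FGFR2 was a DEG. With 3 vehicle libraries over 1 CPM, FGFR2 needed the TP-472 libraries to pass the filter. The separation of FGFR2 and of PDGFA depended on the scaling. With total counts in place of TMM, the exact two-sided permutation p on the mean CPM was 0.114 for FGFR2 and 0.0571 for PDGFA, where the smallest p that 4 against 4 libraries allow is 0.0286.

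PDGFRB, the receptor for PDGF-B and PDGF-D and a marker of pericytes and smooth muscle precursors, was at 13.8, 10.7, 22.4 and 10.5 CPM in the vehicle replicates 1 to 4. In the TP-472 replicates it was at 3.52, 2.62, 2.77 and 2.54 CPM. Every vehicle library was above every TP-472 library, and replicate 3 was the highest of them. The means were 14.4 ± 5.55 and 2.86 ± 0.449 CPM, a log2 fold change of -2.33 (SE 0.27, adjusted p = 4.46e-04). PDGFRB was 4.08-fold lower with TP-472 without vehicle replicate 3 (log2 fold change -2.03, adjusted p = 6.86e-06). PDGFRA, which binds PDGF-A and PDGF-C chains, was at 1.44, 1.06, 0.666 and 1.52 CPM in vehicle and at 1.58, 1.24, 1.28 and 1.29 CPM in TP-472. Its groups overlapped, and its log2 fold change was 0.20 (adjusted p = 0.569), and 0.01 (95% interval -0.43 to 0.45, adjusted p = 0.976) without vehicle replicate 3. PDGFRA values are uncertain because the annotated gene AC058822.1 shares 1533 exon bases with it on the same strand, and 17, 13 and 14 estimated counts went to that gene in vehicle replicate 3 and TP-472 replicates 1 and 2 with none in the other 5 libraries.

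The balance of the PDGF receptor transcripts restates the fall of PDGFRB beside PDGFRA, which was not a DEG. As a share of the summed CPM per kilobase of exon, PDGFRA made up 7.11%, 6.76%, 2.14% and 9.55% of the 2 PDGF receptor genes in the vehicle replicates 1 to 4. In the TP-472 replicates it made up 24.8%, 25.8%, 25.2% and 27.2%. The mean share was 6.39 ± 3.10% in vehicle (7.81 ± 1.52% without replicate 3, n = 3) and 25.7 ± 1.08% in TP-472 (SD, n = 4), with no overlap between libraries, and PDGFRB remained the major transcript in each library. FGFR1 made up 40.4 ± 2.25% in vehicle and 36.6 ± 1.79% in TP-472, FGFR4 45.03 ± 2.79% and 46.3 ± 1.59%, FGFR3 13.3 ± 1.95% and 15.3 ± 0.983%, and FGFR2 1.24 ± 0.255% and 1.81 ± 0.307%. Over all 8 libraries, the groups overlapped for each of the 4 FGF receptor shares. By the means, FGFR1 and FGFR4 changed places without division by exon length. FGFR1 then made up 65.7% in vehicle and 61.9% in TP-472, and FGFR4 25.6% and 27.4%. The PDGFRA shares carry the uncertainty of its counts described above. The shares are a description, with no test.

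**Figure D4:**
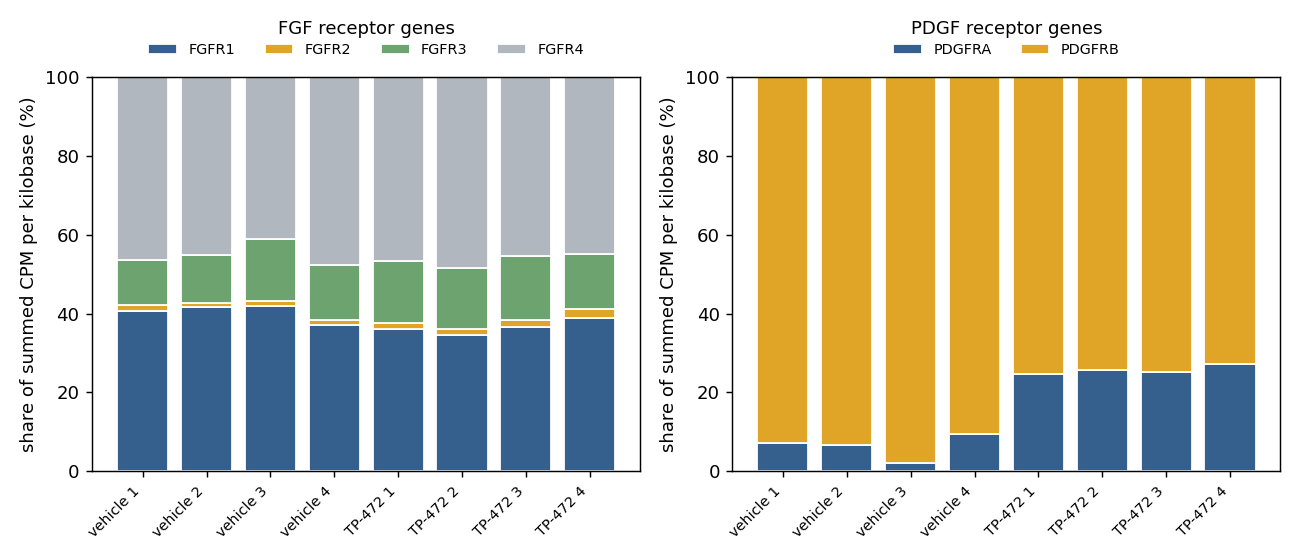
Share of each receptor gene in the summed CPM per kilobase of exon of its family (y axis, percent) in each of the 8 libraries (x axis). Left, the 4 FGF receptor genes. Right, the 2 PDGF receptor genes, where PDGFRA takes 2.14% to 9.55% in vehicle and 24.8% to 27.2% in TP-472.

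Per kilobase of exon, the vehicle levels ran from PDGFC (40.7 ± 6.60 CPM per kilobase) and FGF2 (17.8 ± 4.70) down through FGFR4 (7.06 ± 1.45), FGFR1 (6.44 ± 1.98), FGFR3 (2.17 ± 0.915) and PDGFRB (2.01 ± 0.777) to PDGFA (0.214 ± 0.037), FGFR2 (0.194 ± 0.044), PDGFRA (0.120 ± 0.040) and FGF1 (0.063 ± 0.012). FGFR4 and FGFR1 overlapped between libraries, as did FGFR3 and PDGFRB, and each neighbour among PDGFA, FGFR2, PDGFRA and FGF1. Of the 4 ligand genes, PDGFC and FGF2 thus made up most of the transcript. In TP-472 the order of the 5 most abundant was the same, PDGFC (36.03 ± 1.17 CPM per kilobase), FGF2 (13.4 ± 0.772), FGFR4 (7.16 ± 0.392), FGFR1 (5.65 ± 0.240) and FGFR3 (2.37 ± 0.183). Below them came FGF1 (0.432 ± 0.058), PDGFRB (0.401 ± 0.063), PDGFA (0.327 ± 0.060) and FGFR2 (0.279 ± 0.042), each overlapping with its neighbours, and then PDGFRA (0.138 ± 0.016), under all of them. By its mean FGF1 was the lowest of the 10 genes in vehicle and the sixth in TP-472.

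The spread among replicates was wider in vehicle for 9 of the 10 genes, PDGFA being the exception. The highest library was 1.46 to 2.28 times the lowest over the 10 genes in vehicle and 1.07 to 1.52 times in TP-472. Without replicate 3 the vehicle range was 1.06 to 1.63 times, and it was the wider one for 4 of the 10 genes (FGFR1, FGFR2, FGFR3 and PDGFRA).

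Genes with the most similar profile were sought by Pearson r of log2 CPM over the 8 libraries, in which a large difference between the groups alone gives a high r. For FGF1 they were RGS16 (r = 0.998), which encodes a regulator of G protein signalling, AC004835.1 (r = 0.995) and the decoy TRAIL receptor gene TNFRSF10D (r = 0.995). For PDGFRB they were MOV10, an RNA helicase gene (r = 0.997), ZMYM3 (r = 0.997) and STARD8 (r = 0.996). RGS16 was at 0.432 ± 0.083 CPM in vehicle and 4.39 ± 0.552 CPM in TP-472, and AC004835.1 at 0.206 ± 0.044 and 1.30 ± 0.307 CPM. Like FGF1, both passed the filter through the TP-472 libraries alone and had to differ. STARD8 was at 48.5 ± 12.9 and 16.5 ± 0.952 CPM.

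Several genes lie across the members on the genome, and whether reads of opposite strands were kept apart is not settled by the sources used here, since the labels name a TruSeq RNA kit and the methods describe strand-specific total RNA libraries. SPRY4-AS1, an antisense gene that overlaps 79824 bases of FGF1 but shares no exon base with it, rose by 0.99 on the log2 scale (adjusted p = 0.0108) and, with 1 vehicle library over 1 CPM, needed the TP-472 libraries to pass the filter. NUDT6 lies opposite FGF2 with 804 shared exon bases and was at 15.5 ± 3.50 CPM in vehicle and 11.8 ± 1.16 CPM in TP-472 (log2 fold change -0.40, adjusted p = 0.110). LETM2 lies opposite FGFR1 with 138 shared exon bases and rose by 1.26 on the log2 scale (adjusted p = 0.00228), from 0.702 to 1.68 CPM. No vehicle library exceeded 1 CPM for LETM2, so that it passed the filter through the TP-472 libraries alone and had to differ. Of the other overlapping genes, RPS20P22 in FGFR1 was tested and had a log2 fold change of -0.14 (adjusted p = 0.824; 0.49, adjusted p = 0.140, without vehicle replicate 3), and AC021205.1 and AC021205.3 at FGF2, AC087623.1 and AC087623.3 at FGFR1, and AC092608.1, AC092608.2 and AC092608.3 at PDGFC were too low to test.

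The rest of the pathway was read from lists of related genes, whose counts stand against 12.0% of all genes higher and 14.9% lower with TP-472 (12.0% and 13.4% without vehicle replicate 3). Among 20 further FGF ligands, 2 passed the filter and neither was a DEG. FGF5 was the most abundant, at 9.38 ± 1.75 CPM in vehicle and 7.87 ± 2.20 CPM in TP-472 (log2 fold change -0.25, adjusted p = 0.375). FGF18, named after its values were seen, was at 0.769 ± 0.322 and 1.20 ± 0.0589 CPM (log2 fold change 0.64, adjusted p = 0.104), and was a DEG without vehicle replicate 3 (0.95, adjusted p = 0.00464). It passed the filter through the TP-472 libraries. The other 18 stayed under 1 CPM in every library, and 3 of them had no count at all. Of 7 further PDGF and VEGF ligands, 3 passed the filter. PGF, the placental growth factor gene, rose by 0.77 on the log2 scale (adjusted p = 0.0291), and by 1.02 without vehicle replicate 3, although leaving out vehicle replicate 1, 2 or 4, or TP-472 replicate 1, 2 or 3, ended the call (adjusted p of 0.0586 to 0.0885). VEGFB fell by 1.48 (adjusted p = 0.0388), and by 0.75 without that library, in which it was at 30.7 CPM against 6.06 to 12.2 CPM in the other vehicle libraries. Leaving out vehicle replicate 1 or any 1 TP-472 library ended the call of VEGFB (adjusted p of 0.0681 to 0.0933). VEGFA, the most abundant, was at 38.7 ± 8.48 and 46.9 ± 2.06 CPM (adjusted p = 0.170).

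Of 10 related receptors, 3 passed the filter and none was a DEG. FGFRL1, an FGF-binding receptor without a kinase domain, was at 12.1 ± 7.43 CPM in vehicle and 10.98 ± 1.38 CPM in TP-472, and its log2 fold change was -0.14 (adjusted p = 0.768) over all libraries and 0.37 (adjusted p = 0.0775) without vehicle replicate 3. In that second fit 1 of the 3 was a DEG, PDGFRL downward (log2 fold change -0.66, adjusted p = 0.0307), named after its values were seen.

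Heparan sulphate proteoglycans, which hold FGFs at the cell surface and in the matrix, changed in both directions. Of 14 proteoglycan and FGF carrier genes, 9 passed the filter, 2 rose and 4 fell (12.0% and 14.9% of all genes), with a median log2 fold change of -0.89 against -0.03 over all genes. HSPG2, which encodes the matrix proteoglycan perlecan, was at 71.9, 31.3, 253.0 and 31.2 CPM in the vehicle replicates 1 to 4 and between 9.46 and 13.7 CPM in TP-472. The groups were apart, and 1 vehicle library carried most of the vehicle mean. HSPG2 fell by 2.999 on the log2 scale (adjusted p = 0.00921), and by 1.89 without replicate 3. The other members that fell were SDC3 (log2 fold change -1.95, and -1.29 without vehicle replicate 3), GPC1 (-1.42) and GPC6 (-1.04), and GPC1, at 114.8 CPM in vehicle replicate 3, had a log2 fold change of -0.66 without that library and was not a DEG when any 1 TP-472 library was left out (adjusted p of 0.0792 to 0.0885). SDC2 rose by 1.29 and SDC4 by 0.67 on the log2 scale, both syndecan genes. With 2 vehicle libraries over 1 CPM, SDC2 needed the TP-472 libraries to pass the filter. Without vehicle replicate 3, SDC4 was just under the fold limit (log2 fold change 0.58), the list's median was -0.46, and 1 gene rose and 4 fell.

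Of 11 enzymes that build or trim heparan sulphate, 10 passed the filter and 1 was a DEG, SULF1, an extracellular sulphatase gene, which fell by 1.07 on the log2 scale (adjusted p = 0.0122), from 1.71 ± 0.315 to 0.811 ± 0.253 CPM. Only 1 TP-472 library exceeded 1 CPM for SULF1, so that it needed the vehicle libraries to pass the filter. EXT2, a chain polymerase gene, was the most abundant by the mean over all libraries, at 94.96 ± 14.7 and 96.9 ± 3.80 CPM (adjusted p = 0.869). NDST1, named after its values were seen, had the higher vehicle mean, at 119 ± 54.9 CPM. That rank rested on vehicle replicate 3, where NDST1 was at 196.9 CPM and EXT2 at 74.4 CPM. In vehicle replicates 2 and 4 EXT2 was the higher, at 106.1 and 104.9 CPM against 79.6 and 81.6 CPM. The median of the list was -0.26. Of 9 genes for the release and processing of the ligands, 1 rose and 2 fell (12.0% and 14.9% of all genes), with a median of -0.08. PLAT, tissue plasminogen activator, which cleaves PDGF-C, fell by 0.70 on the log2 scale (adjusted p = 0.00330), from 20.1 ± 1.84 to 12.4 ± 1.16 CPM. The proprotein convertase gene FURIN had 16.2 ± 9.87 and 8.08 ± 0.287 CPM and fell by 1.00 (adjusted p = 0.0453), and it was not a DEG without vehicle replicate 3 (log2 fold change -0.48). PCSK5, another convertase gene, rose by 0.98 (adjusted p = 0.0320), and it too had 2 vehicle libraries over 1 CPM and needed the TP-472 libraries to pass. The call of FURIN ended without vehicle replicate 1 or any 1 TP-472 library (adjusted p of 0.0546 to 0.104), and that of PCSK5 without vehicle replicate 4 or any 1 TP-472 library (adjusted p of 0.0520 to 0.0789). ANXA2, the most abundant, was at 800 ± 195 and 1011 ± 51.3 CPM (adjusted p = 0.166).

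The 21 adaptors and kinases directly below the receptors all passed the filter, 1 rose and 6 fell, with a median log2 fold change of -0.14, where 12.0% of all genes rose and 14.9% fell. The kinase genes MAP2K1 and MAP2K2 went opposite ways over all libraries, MAP2K1 rising from 43.6 ± 6.66 to 69.5 ± 1.23 CPM (log2 fold change 0.67, adjusted p = 0.00383) and MAP2K2 falling from 128 ± 72.5 to 64.5 ± 4.92 CPM (log2 fold change -0.99, adjusted p = 0.0374). MAP2K2 was at 236.1 CPM in vehicle replicate 3, and without that library its log2 fold change was -0.51, under the fold limit. Its call also ended without vehicle replicate 1 or any 1 TP-472 library (adjusted p of 0.0522 to 0.0923). The docking protein gene GAB2 fell by 0.86 (adjusted p = 0.00176), the kinase gene MAPK3 by 0.78 (adjusted p = 0.00727), the adaptor gene SHC1 by 0.69 (adjusted p = 0.00284) and the phospholipase gene PLCG1 by 0.63 (adjusted p = 0.0146) on the log2 scale. PTPN11, the phosphatase gene with the highest level of the list, was at 433 ± 97.4 and 531 ± 16.5 CPM (adjusted p = 0.193). Leaving out vehicle replicate 3, SHC1 and PLCG1 were under the fold limit (log2 fold changes of -0.58 and -0.45), and 2 of the 21 rose and 3 fell (12.0% and 13.4% of all genes).

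Of 20 genes that signalling through these receptors induces, or that restrain it, 18 passed the filter, 10 rose and 1 fell with TP-472, with a median log2 fold change of 0.88 against -0.03 over all genes, of which 12.0% rose and 14.9% fell. Without vehicle replicate 3, 13 rose and 1 fell, against 12.0% and 13.4% of all genes, and 11 were DEGs in both fits. SPRY2, 1 of the 10 that rose over all libraries, was named after its values were seen. With 1 vehicle library over 1 CPM, SPRY2 needed the TP-472 libraries to pass the filter. DUSP6, a phosphatase gene for ERK, was at 4.13, 4.63, 4.37 and 5.85 CPM in the vehicle replicates 1 to 4. In the TP-472 replicates it was at 28.4, 30.2, 28.6 and 30.6 CPM. Vehicle replicate 3 lay within the range of the other vehicle libraries. DUSP6 rose by 2.63 on the log2 scale (SE 0.14, adjusted p = 1.74e-05). DUSP5 rose by 2.17, from 10.5 ± 0.549 to 47.1 ± 3.04 CPM, and the early response gene IER3 by 2.64, from 9.16 ± 2.32 to 57.2 ± 5.52 CPM. The ETS factor gene ETV5 rose by 1.68 and the AP-1 gene FOSL1 by 1.52 on the log2 scale (2.11 without vehicle replicate 3). CCND1, the cyclin D1 gene and the most abundant of the list by the mean over all libraries, rose by 1.04 from 127 ± 25.4 to 261 ± 14.8 CPM. MYC, named after its values were seen, had the higher vehicle mean, at 164 ± 78.4 CPM, with 281.6 CPM in vehicle replicate 3. It was at 197 ± 9.96 CPM in TP-472 (log2 fold change 0.26, adjusted p = 0.455). Without vehicle replicate 3 MYC was a DEG upward (0.66, adjusted p = 3.78e-05). EGR1 (-0.09 over all libraries, 0.73 without that library) and FOS (0.28 and 0.68), named likewise, were also DEGs upward only in that second fit. The gene that fell was IL17RD, which encodes a membrane inhibitor of FGF signalling, from 17.0 ± 2.15 to 9.05 ± 1.41 CPM (log2 fold change -0.91, adjusted p = 0.00262), named after its values were seen. The genes of this list respond to many receptors and kinases besides the FGF and PDGF receptors.

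SPRY4, a Sprouty gene of the same list, lies 265722 bases from FGF1 on the same strand, at chr5:142310427-142326455. It was at 23.0, 14.3, 34.04 and 19.3 CPM in the vehicle replicates 1 to 4 and at 64.0, 57.0, 59.2 and 87.7 CPM in TP-472. The groups did not overlap, and SPRY4 rose by 1.56 on the log2 scale (SE 0.26, adjusted p = 0.00255), and by 1.83 without vehicle replicate 3.

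**Figure D5:**
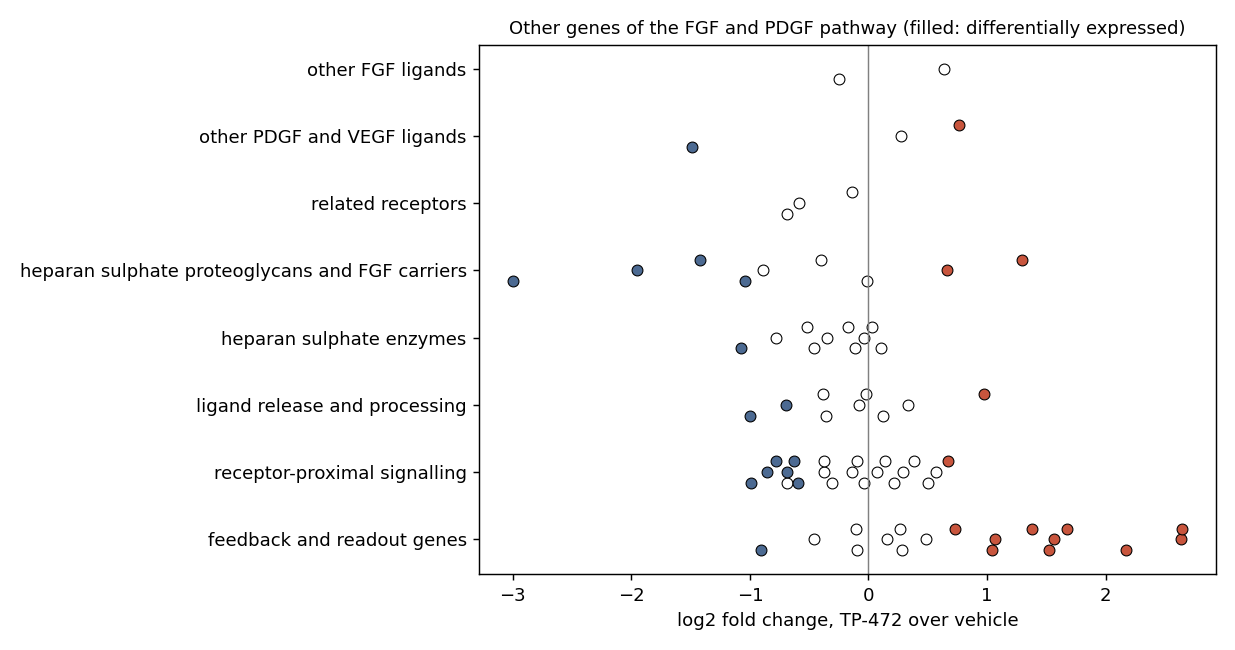
Log2 fold change of TP-472 over vehicle (x axis) for the tested genes of 8 lists of the FGF and PDGF pathway, 1 point per gene over all 8 libraries. Filled points are DEGs (red higher, blue lower). Proteoglycan genes reach -2.999 and 10 of the 18 feedback and readout genes lie to the right as filled points.

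Markers of cell type moved beside PDGFRB, and their part in its fall was not tested. Of 8 smooth muscle markers 7 were tested, none rose and 3 fell, where 14.9% of all genes fell. MYH11, left out by the filter, went the other way, from 0 to 0.0281 CPM in vehicle to 0.194 to 0.264 CPM in TP-472. ACTA2, named after its values were seen, was the fourth that fell without vehicle replicate 3 (log2 fold change -0.59, against -0.55 and under the fold limit over all libraries). DES fell by 2.36, LMOD1 by 1.84 and TAGLN by 0.67 on the log2 scale. DES and LMOD1 exceeded 1 CPM in the vehicle libraries alone and passed the filter through them, so both had to differ. The summed level of the list was 439.0, 479.4, 523.7 and 480.8 CPM in the vehicle replicates and between 370.6 and 379.8 CPM in TP-472, with CALD1, the most abundant, at 200 ± 15.3 and 192 ± 5.65 CPM. Of the 4 mesenchymal markers, COL1A2 fell by 2.58, from 589 ± 77.3 to 98.8 ± 4.83 CPM, and COL1A1 fell by 2.35 (1.46 without vehicle replicate 3), a call that ended when any 1 TP-472 library was left out (adjusted p of 0.0531 to 0.0676). THY1, named after its values were seen, was at 41.1 ± 11.9 and 48.9 ± 4.19 CPM (log2 fold change 0.25, adjusted p = 0.318, and 0.46, adjusted p = 0.00412, without vehicle replicate 3, under the fold limit). VIM, the most abundant, was at 1908 ± 57.3 CPM in TP-472 (log2 fold change -0.41, adjusted p = 0.0983). The summed level of the mesenchymal markers was 2913, 2705, 4306 and 2788 CPM in vehicle and between 1996 and 2140 CPM in TP-472. Of the 5 epithelial markers, 3 were tested, KRT18 rose by 1.08 and KRT19 fell by 0.85 on the log2 scale, and EPCAM and CDH1 stayed under 1 CPM. The list summed to between 17.5 and 23.1 CPM in vehicle and between 20.4 and 26.8 CPM in TP-472, with KRT19 the most abundant in vehicle and KRT18 in TP-472. Of the 3 leukocyte markers only CD68 was tested, at 7.53 ± 0.573 and 10.4 ± 1.48 CPM (log2 fold change 0.47, adjusted p = 0.0307, under the fold limit). The hormone receptor genes ESR1 and PGR together summed to at most 0.129 CPM in any library.

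Many of the listed genes were under the filter. In a fit without the filter, 8 of the 42 list genes that had a count but were left out by the filter were DEGs upward and 1 downward, against 4.53% and 2.26% of the 19119 such genes in the whole table. The 8 were KIT, FLT1, DUSP4, SPRY1, FGF4 and the marker genes MYH11, PECAM1 and CDH5. The 1 was the epithelial marker EPCAM, at 0.632 to 0.840 CPM in vehicle and 0.207 to 0.310 CPM in TP-472. The endothelial calls rested on very low levels. CDH5 was at 0 in vehicle and 0.0518 to 0.0846 CPM in TP-472, and PECAM1 at 0 to 0.0287 and 0.111 to 0.238 CPM.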

How the data were processed

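The authors made libraries from total RNA of SK-UT-1 cells, sequenced them and estimated transcript abundance with Salmon 1.4.0 on GRCh38. The deposited values are estimated counts per gene, summed from transcripts and not normalized, with identifiers of GENCODE 34. The study states limits on the adjusted p and fold but names no test for these counts.

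The estimates were rounded before use. A gene was kept if it exceeded 1 CPM (before TMM scaling) in 4 or more of the 8 libraries (14073 of 60282), libraries were scaled by TMM, and TP-472 was compared with vehicle over all 8 libraries by edgeR (4.0.16, under R 4.3.3; glmQLFit and glmQLFTest), with Benjamini-Hochberg adjustment over all genes tested. A DEG had an adjusted p below 0.05 and a fold over 1.5. The lowest mean chi-square of any pair of libraries was 12.8, so no library was counted as a duplicate. Depth was 32574716 to 38545695 counts per library. For genes of FGF1's level, counting error limits the precision.

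Exon length, GC content, positions and overlaps came from GENCODE 29 on GRCh38, joined by identifier without version, and 99.3% of the genes tested had a GC value. CPM per kilobase used merged exons. Of 9 members looked up in the RefSeq windows, 8 had one. The fit was tested on simulated data made from these libraries.

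The members, gene lists and tests were chosen with earlier results of these data known. The text names all members, in each list every DEG up to 6 by size of change plus the gene with the highest mean CPM, genes that overlap a member, and the 3 genes most correlated with FGF1 and with PDGFRB. Other genes were named after their values were seen, which holds for SPRY4's position and the marker genes listed as low. Alternatives were DESeq2 1.42.0, limma 3.58.1 (voom, with and without sample quality weights), other scalings, filters and fold limits, unrounded counts, robust estimation, a replicate block, a GC correction chosen after seeing the data, and each library left out.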

Additional observations from a re-analysis of the deposited data

Results flagged for a closer look

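In 120 groups of 4 libraries, the highest or lowest library lay farther from its neighbour than Dixon's 95% limit in 17 cases, and chance alone gives about 1 in 20. Vehicle replicate 3 was that library in 10 of them. Among the growth factor genes these were FGFR1 at 129.9 CPM against 71.0 to 79.97 CPM in the other vehicle libraries and FGFR3 at 17.1 CPM against 7.81 to 9.36 CPM. The other values of that library were 6.89 CPM for PGF, 114.8 CPM for GPC1, 31.0 CPM for FURIN, 236.1 CPM for MAP2K2, 21.9 CPM for GAB2, 396.6 CPM for SHC1, 164.9 CPM for CCND1 and 3546 CPM for VIM, each above the other vehicle libraries. In vehicle replicate 1, TAGLN was low at 27.2 CPM, CD68 low at 6.68 CPM and SPRY4-AS1 high at 1.11 CPM. In TP-472 replicate 4, FGF2 was high at 98.5 CPM against 87.5 to 88.7 CPM and FGF5 was high at 11.1 CPM against 6.46 to 7.14 CPM. PDGFRA was high in TP-472 replicate 1, at 1.58 CPM against 1.24 to 1.29 CPM, and MAP2K1 was low in TP-472 replicate 3, at 67.7 CPM.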

How the results depend on the processing

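FGF1 and PDGFRB kept their direction and stayed DEGs in every alternative that tested them, with log2 fold changes of 2.58 to 2.86 for FGF1 and -2.45 to -1.87 for PDGFRB. A filter of over 5 CPM in 4 libraries left FGF1 untested and 1 of the 10 genes a DEG. With voom and sample quality weights there were 4 (FGF1, FGF2, FGFR2 and PDGFRB), with the GC correction 3 (PDGFA added), and with each library left out 2 to 4. The number of DEGs in the whole table was 1704 with a fold limit of 2, and 2690 to 4223 with each library left out. Without a filter the median log2 fold change of all genes was 0.12, against -0.03. Values near 0 changed sign, and the cause was not tested. FGFR1 was at 0.0812 with voom quality weights and at -0.28 to 0.0491 with a library left out. FGFR4 was at -0.0024 with upper-quartile scaling, -0.0212 with total counts, -0.0038 with the stricter filter and -0.0566 to 0.17 with a library left out, and had an adjusted p below 0.05 with the GC correction (0.43, adjusted p = 0.0195) and with voom quality weights (0.196, adjusted p = 0.00957), under the fold limit in both. FGFRL1 was at 0.0239 with voom, 0.44 with voom quality weights, 0.0289 with the replicate block, 0.42 with the GC correction and -0.34 to 0.37 with a library left out. EXT2 was at -0.0943 with voom quality weights and -0.0712 to 0.0868 with a library left out. Leaving out 1 library ended the call of VEGFB, PGF, GPC1, FURIN, PCSK5, MAP2K2 or COL1A1, with adjusted p up to 0.0933, 0.0885, 0.0885, 0.104, 0.0789, 0.0923 and 0.0676. The library was a TP-472 one for all 7, and also vehicle replicate 1 for VEGFB, PGF, FURIN and MAP2K2, 2 for PGF, 3 (by the fold limit) for FURIN and MAP2K2, and 4 for PGF and PCSK5. Without vehicle replicate 3, SDC4, SHC1 and PLCG1 were also under the fold limit. With the GC correction FURIN (-0.51), MAP2K2 (-0.53), SHC1 (-0.48), PLCG1 (-0.44), MAPK3 (-0.46, adjusted p = 0.0649), TAGLN (-0.47) and KRT19 (-0.49) were under the fold limit, and 4 of the 21 adaptors and kinases were DEGs, against 7. With voom the calls of VEGFB, GPC1, FURIN, MAP2K2 and COL1A1 ended (adjusted p of 0.0873, 0.0617, 0.0724, 0.0518 and 0.0674), with total counts those of FURIN and PCSK5 (0.05002 and 0.0516), and with the stricter filter that of FURIN (0.0502). With voom quality weights VEGFB (-0.46), SDC4 (0.51), FURIN (-0.42), MAP2K2 (-0.43), SHC1 (-0.58), MAP2K1 (0.52) and PLCG1 (-0.41) were under the fold limit, and again 4 of the 21 adaptors and kinases were DEGs. HSPG2 had its weakest log2 fold change in that fit, at -1.48. The weakest log2 fold change of COL1A1 over the alternatives was -0.75. Without division by exon length, FGFR1 made up 65.7% and FGFR4 25.6% of the FGF receptor CPM in vehicle. The libraries share replicate numbers, but same-numbered libraries did not deviate together (r of -0.06, 0.12, -0.17 and -0.18), so they were not treated as paired. With the replicate block 3055 genes were DEGs, 2 of the 10 growth factor genes among them, and VEGFB, FURIN, PCSK5, MAP2K2 and COL1A1 were not (adjusted p of 0.0818, 0.0773, 0.0625, 0.0603 and 0.0734). Genes of under 100 counts per library, FGF1, FGFR2, PDGFA and PDGFRA, are limited by depth.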

Other observations

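Some genes of the same families were under the filter of the test but differed between the groups in each library, and were named after their values were seen. KIT, a receptor tyrosine kinase gene of the PDGF receptor family, was at 0 to 0.0862 CPM in the vehicle libraries and at 0.451 to 0.860 CPM in the TP-472 libraries. FLT1, which encodes a VEGF receptor that also binds PGF, was at 0 to 0.197 CPM in vehicle and at 0.507 to 1.14 CPM in TP-472. The feedback phosphatase gene DUSP4 was at 0 to 0.139 CPM in vehicle and 0.569 to 0.766 CPM in TP-472, and the Sprouty gene SPRY1 at 0 to 0.112 and 0.285 to 0.687 CPM. FGF4 was at 0 to 0.0575 CPM in vehicle and 0.141 to 0.388 CPM in TP-472. These genes were picked for this difference, so no p-value is given for them.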
